A study of Mus musculus with 8 samples.

Results

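The sirtuins are the 7 genes Sirt1 to Sirt7, taken by symbol from the 49492 rows of an RNA-seq table made from MEFs, which are fibroblasts cultured from mouse embryos. All 7 were measured above the filter on low values (at least 1 CPM in at least 2 samples), together with 16232 genes in all. The MEFs carried floxed Pontin alleles (Pontin f/f), were immortalized by serial passage, and received Cre virus, which removes the endogenous gene. They stably expressed, from a lentivirus and after hygromycin selection, Flag-tagged Pontin in its wild-type form (WT) or in a form with 2 arginines replaced by alanine (RA), which the methyltransferase CARM1 does not methylate. Pontin is the ATPase that the gene Ruvbl1 encodes, and it takes part in several chromatin-remodeling complexes. Each form was studied in normal medium and under glucose starvation, in glucose-free medium with dialyzed serum for a time not given for these samples, which made 4 groups of 2 samples. WT and RA are each a stable line, so the Pontin form and the line cannot be told apart. Nothing in the labels says that the 2 samples of a group came from separate cultures, and p-values measure only the spread between these samples.

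Sirtuins are enzymes that remove acetyl and other acyl groups from lysines and consume NAD in each reaction, which ties their activity to the metabolic state of the cell. SIRT1, SIRT6 and SIRT7 act mainly in the nucleus, SIRT2 mainly in the cytoplasm, and SIRT3, SIRT4 and SIRT5 in mitochondria. They are known for roles in the response to nutrient shortage, in which SIRT1 deacetylates transcription factors and autophagy proteins. The transcript levels described below do not measure their enzymatic activity.

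Values are in CPM, reads of a gene scaled to a common library total, after an adjustment of each library size by the authors. Reads recovered from them came to between 43205841 and 56363034 per sample, and from 197 reads for Sirt5 to 4690 for Sirt2 per sample lay behind the sirtuin values. The fibroblast markers were present, with 10 of 11 at a mean of 1 CPM or more (all but Lum) and a summed level that ranged from 5571 to 11187 CPM over the samples. That sum was lower under starvation, with group means of 10957 and 5614 CPM in WT and 11015 and 7368 CPM in RA for normal and glucose-free medium. Of immune, endothelial, epithelial and muscle markers, 1 of 7, 1 of 4, 1 of 5 and 1 of 4 reached 1 CPM (Cd68, Kdr, Krt18 and Acta1). Their summed levels ranged over the samples from 3.02 to 6.50, from 2.02 to 9.43, from 1.43 to 3.21 and from 1.61 to 4.79 CPM, with Ptprc, Pecam1, Epcam and Myod1 among those below 1 CPM. Of 3 neural markers, Tubb3 and Map2 but not Sox2 reached 1 CPM, and their sum ranged from 31.9 to 114 CPM, with group means of 114 and 32.7 in WT and 104 and 46.1 in RA for normal and glucose-free medium. The part of these levels in the results was not tested, and in bulk RNA fewer cells of a type and less RNA per cell cannot be told apart. Ruvbl1 itself was at 28.4 and 27.6 CPM in WT in normal medium, 27.9 and 28.4 in WT under starvation, 36.8 and 32.0 in RA in normal medium, and 45.0 and 42.9 in RA under starvation. Ruvbl1 was higher in RA by 0.29 log2 (SE 0.065, adjusted p = 0.00946, limma with Benjamini-Hochberg adjustment) in normal medium and by 0.62 log2 (adjusted p = 2.94e-07) under starvation. The species of the transgene is not given in the sources used here and its reads may fall in this row, so the row does not check the deletion. The part of the unequal Pontin transcript level in the results was not tested.

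SIRT1 is the nuclear deacetylase of p53, FOXO factors and other regulators. Sirt1 (ENSMUSG00000020063) lies on the minus strand of chromosome 10 (GRCm38, chr10:63319005-63381704). Sirt2 (ENSMUSG00000015149), which encodes the cytoplasmic tubulin and FOXO deacetylase, lies on the plus strand of chromosome 7 (chr7:28766735-28788661). The promoter windows of these genes, 250 bases before to 50 bases after the RefSeq start in GRCm38.p6, are shown because Sirt1 and Sirt2 had the largest responses among the sirtuins. The Sirt1 window is chr10:63338986-63339285 on the minus strand and the Sirt2 window is chr7:28766502-28766801 on the plus strand, written 5′ to 3′ along the gene. Capitals mark the E-box CACGTG and the GC box GGGCGG or its complement CCGCCC.
Sirt1: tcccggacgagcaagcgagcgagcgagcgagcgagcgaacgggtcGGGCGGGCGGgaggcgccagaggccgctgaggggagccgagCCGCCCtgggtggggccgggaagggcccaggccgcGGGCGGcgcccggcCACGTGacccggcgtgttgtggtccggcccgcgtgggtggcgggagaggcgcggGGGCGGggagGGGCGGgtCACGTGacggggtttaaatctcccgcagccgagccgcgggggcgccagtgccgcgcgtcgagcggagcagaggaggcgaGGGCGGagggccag
Sirt2: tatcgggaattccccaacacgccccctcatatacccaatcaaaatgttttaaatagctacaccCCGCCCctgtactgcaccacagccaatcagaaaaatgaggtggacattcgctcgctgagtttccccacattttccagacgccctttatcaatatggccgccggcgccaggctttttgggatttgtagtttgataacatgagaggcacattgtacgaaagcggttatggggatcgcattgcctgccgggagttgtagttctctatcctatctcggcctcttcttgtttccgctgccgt
The Sirt1 window held 79% G or C and 2 E-boxes, which began 115 and 43 bases before the start, and 7 GC boxes, 1 pair of which overlapped. Among 32851 RefSeq promoter windows of this length, 7.15% held an E-box and 0.594% held at least 2. With 2 more bases on each side the Sirt1 E-boxes read GCCACGTGAC, found in 0.307% of windows, and GTCACGTGAC, found in 0.326%; these flanks were looked up after the window was read. The Sirt2 window held 50% G or C, no E-box and 1 GC box, a motif that 35.7% of windows held. Over the 9 windows of the 7 sirtuins, searched on both strands, only the Sirt1 window held an E-box. None of the 9 held the forkhead core TGTTTAC (3.65% of all windows) or the CRE TGACGTCA (1.79%), and the Sirt4 window alone held an E2F motif, TTTGGCGC or TTTCCCGC (1.56%). A match is a description of the letters and not a bound site. The search took exact letters in these windows only, so a missing match does not speak for sites elsewhere or spelled otherwise. The paper assayed a FOXO response element of Sirt1 by chromatin immunoprecipitation. The primers it lists for that element do not occur in the Sirt1 window on either strand. Where the element lies was not examined.

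Glucose starvation was compared with normal medium within each genotype, which asks how the cells' transcripts responded to the loss of glucose. In WT, 5 of 7 sirtuins rose and none fell, where 78.6% of all tested genes changed, 39.3% rising and 39.2% falling. Sirt1 and Sirt2 rose most, Sirt7, Sirt4 and Sirt6 rose less, and Sirt3 and Sirt5 did not pass the test. In RA the same 5 genes rose, where 68.7% of all tested genes changed, 35% rising and 33.7% falling. With 3 other scalings of the libraries 5 or 6 sirtuins rose in WT and 5 in RA, and 0 fell. The median log2 response of the 7 sirtuins was 0.60 in WT and 0.45 in RA, beside 0.00 and 0.01 over all tested genes. A gene that rose in both genotypes was common, at 27.1% of tested genes.

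**Figure D1:**
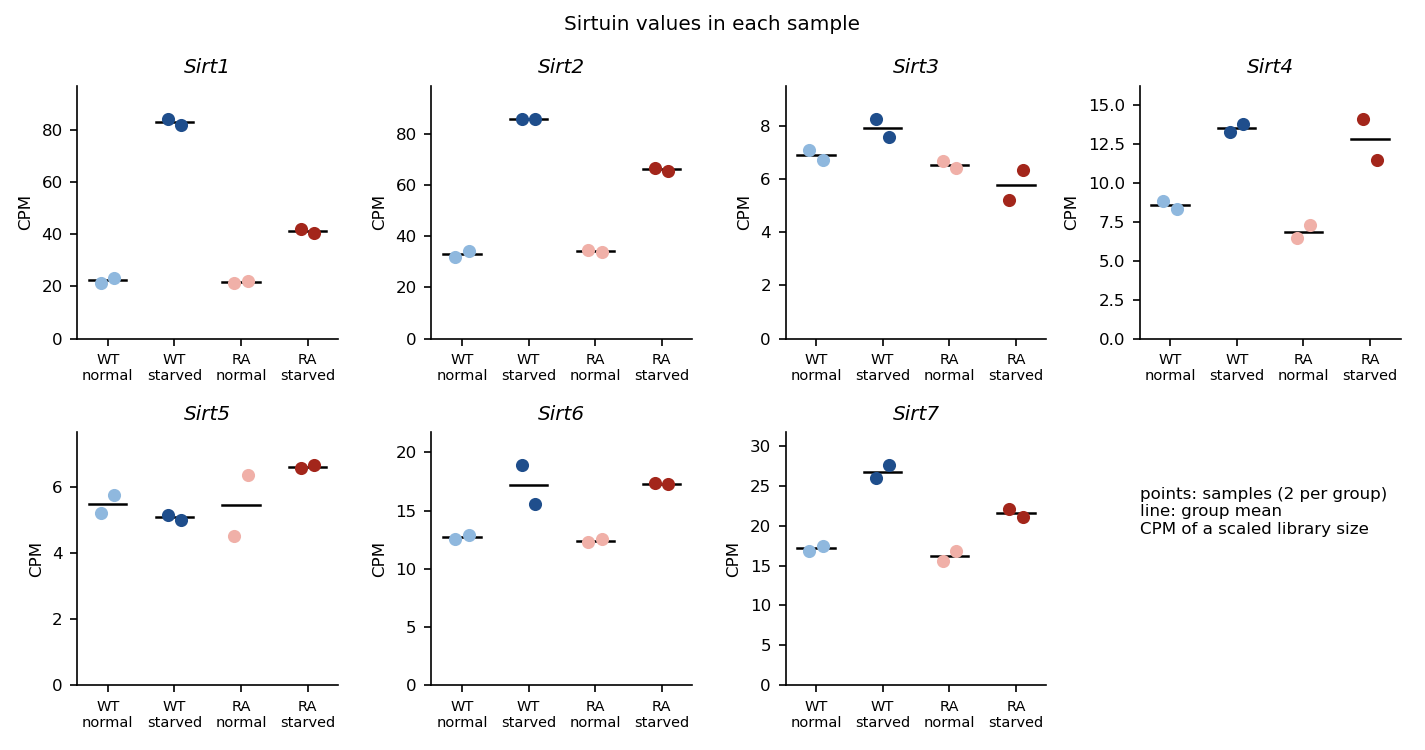
CPM of each sirtuin in each of the 8 samples, with 1 panel a gene, points for samples and a line for the mean of the 2 samples of a group; each vertical axis starts at 0 and has its own range. Sirt1 and Sirt2 reached 81.9 to 85.7 CPM in starved WT samples and 40.4 to 66.5 CPM in starved RA samples, while Sirt3 and Sirt5 stayed between 4.53 and 8.28 CPM throughout.

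Among the nuclear sirtuins, Sirt1 was at 21.4 and 23.4 CPM in WT in normal medium and at 84.4 and 81.9 CPM in WT under starvation. In RA it was at 21.2 and 22.3 CPM in normal medium and at 42.0 and 40.4 CPM under starvation. The starved samples of each genotype lay above all normal samples, the starved WT samples lay above the starved RA samples, and the normal samples of the 2 genotypes overlapped. Sirt1 rose 3.71-fold in CPM in WT, with a log2 difference of 1.85 (SE 0.058, adjusted p = 1.18e-14, limma with Benjamini-Hochberg adjustment), which placed it at rank 252 from the top of the 16232 genes. In RA it rose 1.89-fold, by 0.89 log2 (SE 0.058, adjusted p = 4.82e-10), at rank 936.

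Sirt6 encodes a chromatin-bound deacylase with roles in DNA repair and in restraint of glycolytic genes. It was at 12.6 and 12.9 CPM in WT in normal medium, 18.9 and 15.6 CPM in WT under starvation, 12.3 and 12.5 CPM in RA in normal medium, and 17.4 and 17.2 CPM in RA under starvation. The starved samples lay above the normal ones in each genotype, and the starved samples of WT and RA overlapped. It rose by 0.40 log2 (SE 0.088, limma adjusted p = 4.86e-04) in WT and by 0.45 log2 (adjusted p = 2.29e-04) in RA.

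Sirt7 encodes a nucleolar deacylase linked to ribosomal RNA transcription. It was at 16.9 and 17.5 CPM in WT in normal medium and at 26.0 and 27.6 CPM under starvation, while in RA it was at 15.6 and 16.8 CPM and at 22.1 and 21.0 CPM. No groups overlapped, and the order was starved WT, starved RA, normal WT and normal RA. It rose by 0.61 log2 (SE 0.071, limma adjusted p = 4.84e-07) in WT and by 0.39 log2 (adjusted p = 1.09e-04) in RA.

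Sirt2, the cytoplasmic member, was at 31.8 and 34.2 CPM in WT in normal medium and at 85.7 and 85.7 CPM under starvation. In RA it was at 34.5 and 33.7 CPM in normal medium and at 66.5 and 65.5 CPM under starvation. The starved samples lay far above the normal samples in each genotype, WT above RA, and the normal samples of the 2 genotypes overlapped. The rise was 2.59-fold in CPM in WT, or 1.35 log2 (SE 0.049, limma adjusted p = 8.80e-14), and 1.94-fold in RA, or 0.93 log2 (adjusted p = 3.08e-11).

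The mitochondrial sirtuins divided. Sirt4, whose product is a lipoamidase and ADP-ribosyltransferase of metabolic enzymes, was at 8.83 and 8.32 CPM in WT in normal medium, 13.2 and 13.8 CPM in WT under starvation, 6.44 and 7.30 CPM in RA in normal medium, and 14.1 and 11.5 CPM in RA under starvation. Its starved samples lay above the normal ones, and those of RA spread around those of WT. It rose by 0.60 log2 (SE 0.10, limma adjusted p = 5.19e-05) in WT and by 0.80 log2 (adjusted p = 2.80e-06) in RA. Sirt3 encodes the main mitochondrial deacetylase. It was at 7.09 and 6.71 CPM in WT in normal medium and 8.28 and 7.58 CPM under starvation, and at 6.69 and 6.41 CPM in RA in normal medium and 5.23 and 6.36 CPM under starvation. The starved samples lay above the normal ones in WT and below them in RA, and neither difference passed the test. Its log2 difference was 0.18 (95% interval -0.06 to 0.41, limma adjusted p = 0.150) in WT and -0.16 (-0.39 to 0.07, adjusted p = 0.212) in RA. Sirt5 encodes the desuccinylase and demalonylase of mitochondria. Its values were 5.24 and 5.78 CPM in WT in normal medium, 5.18 and 5.02 CPM in WT under starvation, 4.53 and 6.39 CPM in RA in normal medium, and 6.58 and 6.67 CPM in RA under starvation. The 2 RA samples in normal medium enclosed both WT groups. Its log2 difference was -0.09 (95% interval -0.36 to 0.18, limma adjusted p = 0.513) in WT and 0.25 (-0.02 to 0.53, adjusted p = 0.0882) in RA, and without the second RA sample in normal medium the RA value was 0.46 (adjusted p = 0.00559). The starved and normal samples of a genotype did not overlap for any of the 7 sirtuins, Sirt3 and Sirt5 included, which was also so of 88.7% of tested genes in WT and 83.3% in RA.

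The comparison of RA with WT asks how the RA line differs from the WT line, in normal medium and under starvation. Pontin form, line and the higher Ruvbl1 level of RA cannot be told apart in it. The paper also reports that MEFs with methylation-mutant Pontin lost viability earlier than WT MEFs under glucose starvation. The part of this in the starved samples was not tested. In normal medium 0 of 7 sirtuins passed the test with limma, and 0 with edgeR or DESeq2, where 9.63% of tested genes did with limma, 6.68% higher in RA and 2.95% lower. Of those genes 69.4% were higher in RA, but 40.5% were with total-read scaling and 52.6% with quantile normalization. At an unadjusted p under 0.05 each of the 3 tools counted 1 sirtuin. By limma this was Sirt4, with a log2 difference of -0.28 (SE 0.10, adjusted p = 0.0968). The 95% intervals of the other 6 reached from -0.30 to 0.25 log2, and that of Sirt1 was -0.16 to 0.08. The WT and RA samples did not overlap for 4 of 7 sirtuins, beside 53.2% of tested genes.

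Under starvation 5 of 7 sirtuins differed between RA and WT, 4 of them lower in RA (Sirt1, Sirt2, Sirt3 and Sirt7) and Sirt5 higher, where 62.9% of tested genes differed, 32.1% lower and 30.8% higher. Sirt1 differed most, with a mean of 41.2 ± 1.16 CPM (SD, n = 2) in starved RA against 83.1 ± 1.78 CPM in starved WT, a log2 difference of -0.995 (SE 0.058, limma adjusted p = 1.85e-10). Only 204 of the 16232 tested genes had a lower log2 difference. Sirt2 was lower by a smaller amount, 66.0 ± 0.679 against 85.7 ± 0.0277 CPM, a log2 difference of -0.37 (SE 0.049, limma adjusted p = 5.19e-06). Sirt7 (-0.30, adjusted p = 0.00142) and Sirt3 (-0.40, adjusted p = 0.00449) were also lower in RA. The Sirt3 call was lost without the first starved RA sample (limma adjusted p = 0.0781). Sirt5 was higher in RA by 0.32 log2 (SE 0.13, limma adjusted p = 0.0374), a call that was lost when any of the 4 starved samples was left out (adjusted p from 0.0864 to 0.122), without the filter on low values (0.144), without the variance trend (0.0620), with quantile normalization (0.403) and with DESeq2 (0.0671). Sirt6 (0.01, 95% interval -0.17 to 0.20) and Sirt4 (-0.08, -0.30 to 0.14) did not pass the test. The starved WT and RA samples did not overlap for 5 of 7 sirtuins, beside 81.5% of tested genes.

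The interaction of genotype and medium, the log2 response to starvation in RA less that in WT, was called for 2 of 7 sirtuins, both below 0, where 50.6% of tested genes were called, 26.1% below 0 and 24.5% above. For Sirt1 it was -0.96 (SE 0.082, limma adjusted p = 6.46e-08), and 209 of the tested genes had a lower value. For Sirt2 it was -0.42 (SE 0.070, limma adjusted p = 1.02e-04). The interaction was -0.33 for Sirt3 (limma adjusted p = 0.0837) and -0.22 for Sirt7 (adjusted p = 0.0772), and neither passed the test. Sirt4 (0.21, adjusted p = 0.261), Sirt5 (0.35, adjusted p = 0.122) and Sirt6 (0.05, adjusted p = 0.777) did not pass either. The 95% interval for Sirt6 was -0.22 to 0.31. Leaving out 1 sample added a call in 3 cases, for Sirt3 without the second starved RA sample (-0.45, limma adjusted p = 0.0370), for Sirt5 without the second RA sample in normal medium (0.56, 0.0131) and for Sirt7 without the first RA sample in normal medium (-0.27, 0.0478). Sirt1 and Sirt2 thus rose in both genotypes and rose less in RA. A rise in WT with a called interaction below 0, whatever the change in RA, was found in 21% of tested genes. At the stricter adjusted p under 1e-05 that the study used, edgeR called 0 sirtuins between RA and WT in normal medium, 2 under starvation, 3 for starvation in WT, 3 for starvation in RA and 1 for the interaction. The shares of all tested genes at that threshold were 0.881%, 22.1%, 45.3%, 30.5% and 11%. The study picked Sirt1 from these libraries as a gene of autophagy regulation that depended on methylated Pontin, so its place here is not independent evidence. The paper also measured Sirt1 by quantitative RT-PCR with the acetyltransferase Tip60 knocked down. By chromatin immunoprecipitation it assayed a FOXO response element of Sirt1 in WT and RA MEFs, with and without starvation. Further quantitative RT-PCR in the paper covered autophagy genes in WT and RA MEFs and in human cells given either Pontin form. Its primer list includes mouse and human Sirt1. Those measurements were not examined here.

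**Figure D2:**
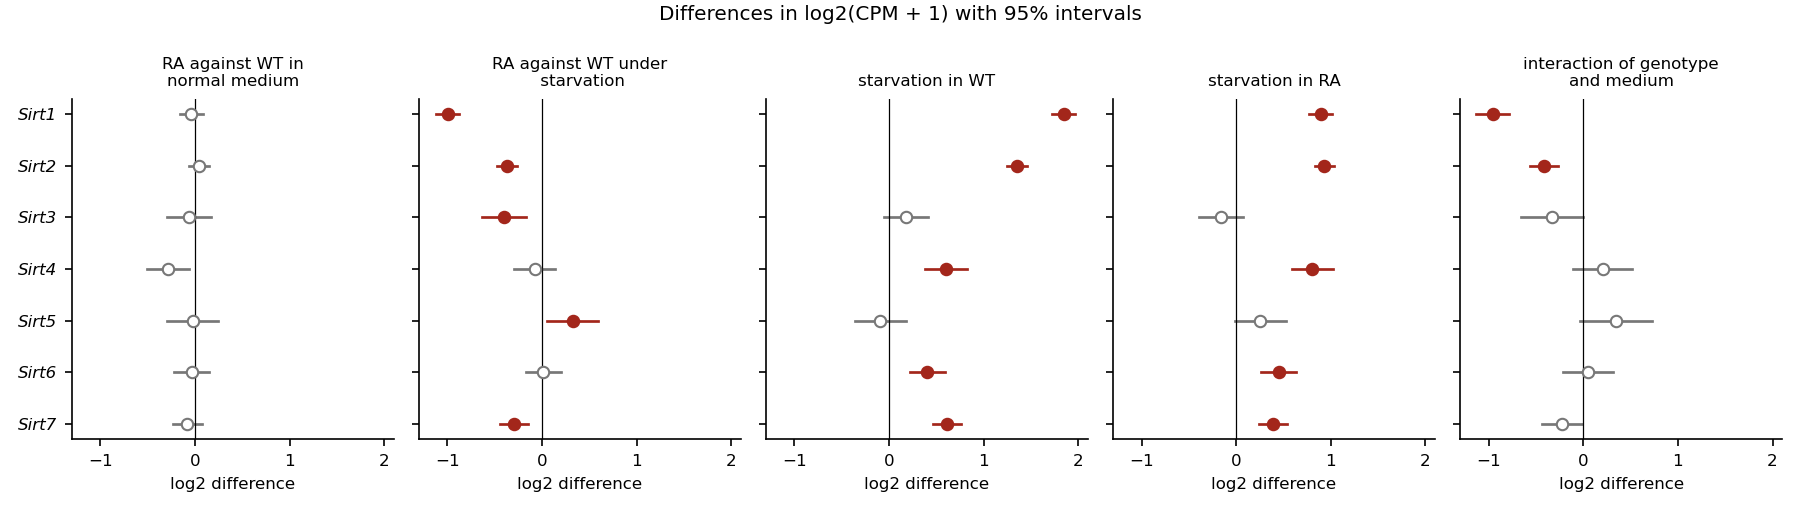
Log2 differences in CPM + 1 for the 7 sirtuins in the 5 comparisons, with points for the estimates, bars for 95% intervals, and filled points for an adjusted p under 0.05. The bars of Sirt1 and Sirt2 lie clear of 0 in all comparisons but RA against WT in normal medium, and no sirtuin is filled there.

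The level of the family as a whole moved with Sirt1 and Sirt2. The 7 sirtuins summed to 104 and 109 CPM in WT in normal medium, 242 and 237 CPM in WT under starvation, 101 and 105 CPM in RA in normal medium, and 174 and 169 CPM in RA under starvation. Normal samples of the 2 genotypes overlapped and starved ones did not. The share of Sirt1 in the sum was 20.6% to 21.5% in the 4 normal samples, 34.5% and 34.9% in starved WT, and 23.9% and 24.2% in starved RA. The share of Sirt2 ranged from 30.7% to 38.8% and was above 38% only in starved RA, where it was 38.2% and 38.8%. Sirt1 and Sirt2 together made up 51.3% to 55.0% of the sum in normal medium, 70.4% and 70.7% in starved WT, and 62.4% and 62.8% in starved RA. These shares are of summed CPM, not corrected for length, and describe how the sum was made up.

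The order of levels between the sirtuins was read per kilobase of annotated exon. On this scale Sirt2 was highest in every group, from 6.56 ± 0.336 CPM per kilobase (SD, n = 2) in WT in normal medium to 17.0 ± 0.00550 in starved WT. In normal medium Sirt6 was the second and Sirt1 the third, at 4.58 ± 0.0897 and 4.21 ± 0.266 CPM per kilobase in WT and at 4.46 ± 0.0495 and 4.08 ± 0.138 in RA. Under starvation Sirt1 was the second, at 15.6 ± 0.334 in WT and 7.73 ± 0.218 in RA, above Sirt6 at 6.19 ± 0.837 and 6.22 ± 0.0385. Sirt4 and Sirt7 lay next, between 2.87 and 5.63 CPM per kilobase over the 4 groups, and changed places between groups. Sirt3 and Sirt5 were the 2 lowest in every group, between 0.837 and 1.33. Dividing by the longest transcript in place of all exon bases left Sirt2 highest in every group and Sirt1 the second under starvation, but put Sirt7 above Sirt1 in normal medium, at 5.25 against 5.06 in WT and 4.95 against 4.91 in RA.

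**Figure D3:**
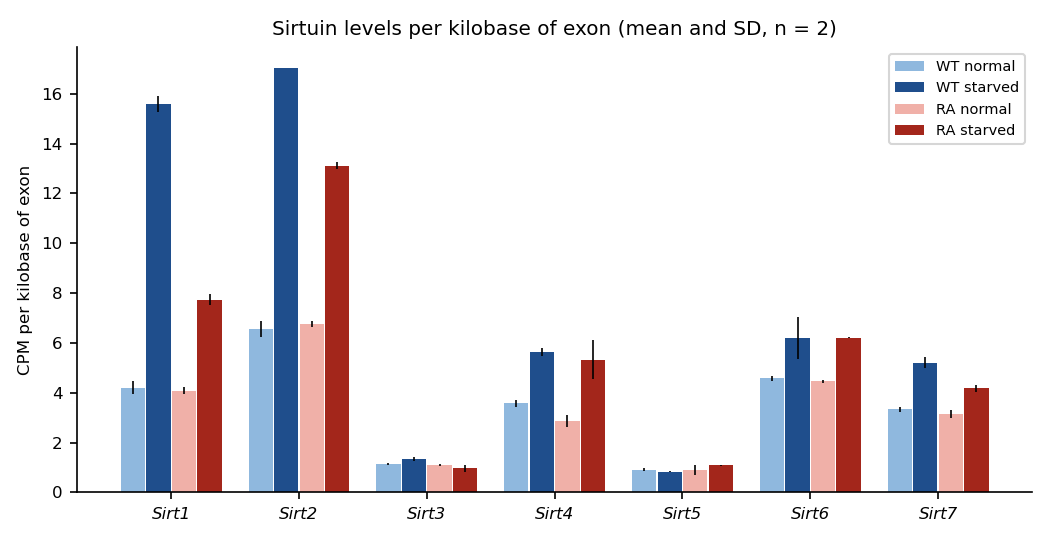
CPM per kilobase of exon for the 7 sirtuins in the 4 groups, with bars for the mean of 2 samples and error bars for the SD. Sirt2 has the tallest bar in each group, and the Sirt1 bar stands at 15.6 in starved WT and 7.73 in starved RA.

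Within this family the samples varied together for some members. Over the 8 samples, on log2(CPM + 1), Pearson's r was 0.99 for Sirt1 and Sirt7, 0.97 for Sirt1 and Sirt2, 0.92 for Sirt2 and Sirt6, and -0.66 for Sirt3 and Sirt5. The 8 points share 4 conditions and 2 lines, so these values mostly describe the group means. Among the tested genes with a mean of at least 10 CPM, those whose values were most like Sirt1 were Spns1, a lysosomal membrane transporter, Supt5, a transcription elongation factor, and Usf1, a bHLH transcription factor, each with r of 0.999 over 8 samples and 10497 candidates. Spns1 had nearly the levels of Sirt1, with means of 23.2 and 82.6 CPM in WT and 22.5 and 43.7 CPM in RA for normal medium and starvation, and an interaction of -0.87 log2 (SE 0.083, limma adjusted p = 2.26e-07). The interaction was smaller for Supt5 (-0.46) and Usf1 (-0.35). For Sirt2 the nearest were Stbd1, a glycogen-binding protein, Clcn7, a lysosomal chloride transporter, and Dnajb9, an endoplasmic reticulum co-chaperone, also with r of 0.999. Dnajb9 went from 11.6 to 122 CPM in WT and from 11.6 to 59.1 CPM in RA, so a near-perfect r did not mean an equal size of response. The nearest genes were Vegfb (0.997), Skint6 (0.996) and Gm12816 (0.995) for Sirt7, Ep400 (0.99), Gm15347 (0.99) and Lrrc71 (0.98) for Sirt6, and Papd4, Rrnad1 and Chkb (0.99 each) for Sirt4. For the low members the likeness was weaker, with Zfp710 (0.98), Naa40 (0.98) and Tpr (0.97) for Sirt3 and Stambpl1 (0.97), Btg2 (0.96) and Pomk (0.92) for Sirt5.

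Some sirtuin loci share exon bases with neighbours, which bears on counts from a kit that does not mark strand. The overlaps were read from GENCODE gene models on GRCm38, while the authors mapped to mm9. Sirt3 (chr7:140863666-140882309, minus strand) shares 12.7% of its exon bases, 342 with Psmd13, a proteasome subunit gene on the other strand, and 418 with Ric8a, also on the other strand. Psmd13 was at 168 CPM in WT in normal medium and 129 CPM in starved WT, and at 183 and 119 CPM in RA. Spread evenly over its exons, that would put 17.0, 13.1, 18.5 and 12.1 CPM on the shared bases, more than the whole Sirt3 row held in any sample, so on that assumption the row cannot hold all of them. Ric8a, a chaperone gene of G protein alpha subunits, rose from 35.9 to 55.0 CPM in WT and from 36.4 to 45.8 CPM in RA. Even spread would put 2.12, 3.25, 2.15 and 2.71 CPM of it on the shared bases, and in WT that difference is about as large as the one between the Sirt3 means of 6.90 and 7.93 CPM. Over the 8 samples r was 0.04 for Sirt3 and Psmd13 and 0.25 for Sirt3 and Ric8a. How many reads of these neighbours the Sirt3 row holds was not tested, and its values are uncertain. Sirt7 (chr11:120618372-120625240, minus strand) shares 124 exon bases with Mafg, a small Maf transcription factor gene on the same strand. Mafg rose from 73.2 to 193 CPM in WT and from 66.4 to 131 CPM in RA, and even spread would put 1.62, 4.26, 1.47 and 2.90 CPM on the shared bases. How the reads of Mafg are in fact spread was not measured, Mafg and Sirt7 moved together over the 8 samples (r = 0.98), and the part of Mafg reads in the rise of Sirt7 was not tested. Sirt2 shares 42 exon bases with Nfkbib, the gene of an inhibitor of NF-kB whose start lies 777 bases from that of Sirt2 on the other strand. Nfkbib rose from 15.4 to 27.1 CPM in WT and from 16.1 to 22.5 CPM in RA. Its interaction was -0.32 log2 (SE 0.11, limma adjusted p = 0.0196), and its r with Sirt2 over the 8 samples was 0.99. Even spread would put at most 0.525 CPM of Nfkbib on the shared bases. Sirt1 shares 65 exon bases with Gm16145, which was at or near 0 in every group, and Dnajc12, which starts 739 bases from the outermost annotated start of Sirt1 on the other strand, fell from 4.35 to 1.85 CPM in WT and from 4.37 to 2.19 CPM in RA. Sirt4 (chr5:115478010-115484725, minus strand), Sirt5 (chr13:43365496-43395203, plus strand) and Sirt6 (chr10:81621785-81627797, minus strand) share no exon bases with another gene. Ankrd24, which starts 743 bases from Sirt6 on the other strand, was at 4.78 and 5.30 CPM in WT and rose from 5.09 to 7.22 CPM in RA.

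The sirtuins were set beside the other family of lysine deacetylases, the zinc-dependent enzymes Hdac1 to Hdac11, all 11 of which were tested. In each genotype 5 of 11 rose and 5 fell under starvation, and 1 did not pass the test, so 90.9% were called, beside 78.6% of all tested genes in WT and 68.7% in RA. This stood against 5 rising and 0 falling among the 7 sirtuins, a difference that was not tested. The interaction was called for 3 of 11 (27.3%, beside 50.6% of all tested genes), with 1 above and 2 below 0 and a median of -0.09, against -0.22 for the sirtuins and -0.01 for all tested genes. Hdac7, a class IIa corepressor, fell from 204 to 68.8 CPM in WT and from 185 to 111 CPM in RA (interaction 0.82, limma adjusted p = 2.70e-09). Hdac4, of the same class, rose from 15.1 to 36.1 CPM in WT and from 14.2 to 30.4 CPM in RA (interaction -0.15, adjusted p = 0.179). Hdac8 rose from 10.5 to 25.8 CPM in WT and from 10.8 to 19.5 CPM in RA (interaction -0.42, limma adjusted p = 0.0153). The nuclear class I enzymes Hdac1 and Hdac2 fell in both genotypes. Hdac1 went from 165 to 96.4 CPM in WT and from 175 to 96.3 CPM in RA (interaction -0.09, limma adjusted p = 0.247). Hdac2 went from 136 to 108 CPM in WT and from 138 to 89.9 CPM in RA (interaction -0.28, limma adjusted p = 0.00117). Hdac10 fell by 0.35 log2 in WT and by 0.18 log2 in RA.

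**Figure D4:**
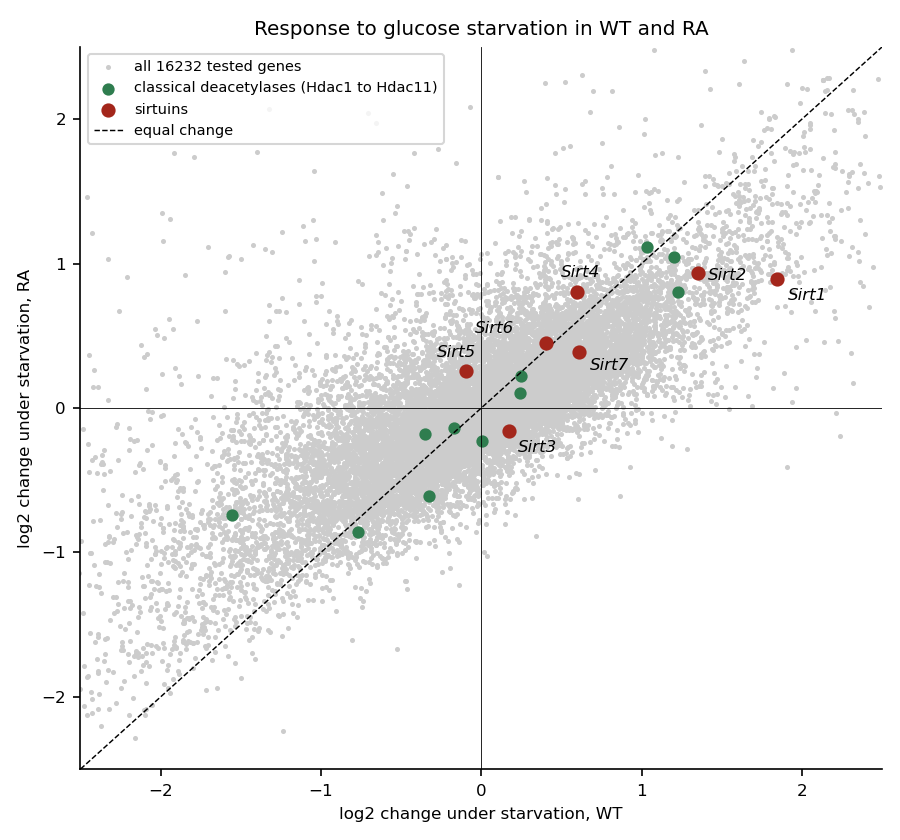
Log2 response to starvation in WT (horizontal) against RA (vertical) for all 16232 tested genes in grey, with sirtuins in red, zinc-dependent deacetylases in green and a dashed line of equal change; axes end at 2.5 in each direction, which leaves out 319 genes. Sirt1 and Sirt2 lie below the dashed line at 1.85 and 1.35 on the horizontal axis, and Hdac7 lies at -1.56 and -0.74.

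NAD is the cosubstrate of every sirtuin. Of 31 genes of NAD supply and use, 30 were in the table and 20 were tested, of which 9 rose and 7 fell under starvation in WT and 8 rose and 7 fell in RA. These called shares of 80% and 75% lay near the 78.6% and 68.7% of all tested genes. The interaction was called for 8 of 20 (40%, beside 50.6% of all tested genes), with 4 above and 4 below 0. The 4 above 0 fell outside the rule for named genes. The highest was Nmnat2 (0.97, limma adjusted p = 6.50e-04), at a mean of 3.12 CPM. Slc25a51, the mitochondrial NAD carrier, rose from 57.5 to 94.9 CPM in WT and from 53.9 to 63.9 CPM in RA (interaction -0.47, SE 0.064, limma adjusted p = 1.42e-05). Nadk2, the mitochondrial NAD kinase, fell from 109 to 71.1 CPM in WT and from 92.2 to 46.9 CPM in RA (interaction -0.35, adjusted p = 1.01e-04). Pnp, a nucleoside phosphorylase, fell from 181 to 108 CPM in WT and from 230 to 121 CPM in RA. The interaction of Pnp was -0.18 (limma adjusted p = 0.0190). Nmnat3, an adenylyltransferase of NAD synthesis, rose from 8.70 to 18.8 CPM in WT and from 7.95 to 14.9 CPM in RA. Nnmt, which methylates nicotinamide, rose from 12.9 to 26.9 CPM in WT and from 13.6 to 26.0 CPM in RA. The nicotinamide riboside kinase gene Nmrk1 rose from 6.87 to 10.3 CPM in WT and from 5.75 to 10.6 CPM in RA. The interactions of Nmnat3, Nnmt and Nmrk1 did not pass the test (limma adjusted p of 0.323, 0.426 and 0.145).

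Of 26 regulators and partners of SIRT1, 24 were tested. Under starvation 15 rose and 5 fell in WT, where 39.3% of all tested genes rose and 39.2% fell. In RA 8 rose and 8 fell, where 35% of all tested genes rose and 33.7% fell. The median log2 responses of the list were 0.29 in WT and -0.05 in RA, beside 0.00 and 0.01 over all tested genes. Between RA and WT under starvation 20 of 24 were called, 16 lower in RA and 4 higher, beside 62.9% of all tested genes, 32.1% lower and 30.8% higher. The interaction was called for 17 of 24, with 15 below and 2 above 0 and a median of -0.29, beside 50.6% of tested genes. With 3 other scalings of the libraries, 11 to 15 were called below and 2 or 3 above 0. Foxo3, a forkhead transcription factor deacetylated by SIRT1, rose from 17.2 to 36.4 CPM in WT and from 17.4 to 20.9 CPM in RA (interaction -0.78, SE 0.11, limma adjusted p = 1.62e-05). Foxo1, of the same family, fell from 11.3 to 7.09 CPM in WT and was at 10.3 and 9.78 CPM in RA (interaction 0.54, adjusted p = 0.00248). Ubxn1 went from 99.7 to 181 CPM in WT and from 111 to 131 CPM in RA, a rise in each. The interaction of Ubxn1 was -0.62 (SE 0.066, limma adjusted p = 8.33e-07). Rps19bp1, which encodes the activator AROS, rose from 38.2 to 46.9 CPM in WT and fell from 40.5 to 33.6 CPM in RA (interaction -0.56, limma adjusted p = 4.31e-04). Hic1, a transcriptional repressor of Sirt1, fell from 11.0 to 3.14 CPM in WT and from 9.12 to 4.57 CPM in RA (interaction 0.67, limma adjusted p = 0.00327). The nuclear receptor gene Pparg rose from 7.09 to 13.0 CPM in WT and from 7.97 to 15.7 CPM in RA.

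**Figure D5:**
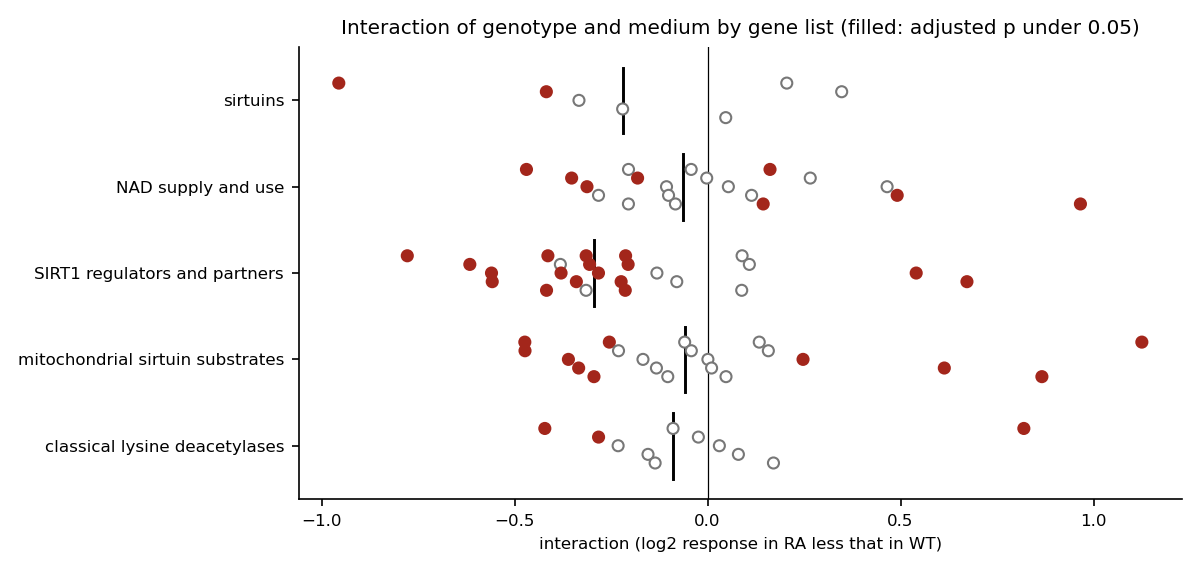
Interaction of genotype and medium (log2 response in RA less that in WT) for the tested genes of 5 lists, with 1 point a gene, filled for an adjusted p under 0.05, and a short line for the median of the list. The median is -0.29 for SIRT1 regulators and partners and -0.22 for the sirtuins, and the sirtuin farthest to the left is Sirt1 at -0.96.

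Of 26 known substrates of the mitochondrial sirtuins, 21 were tested, of which 7 rose and 10 fell under starvation in WT and 4 rose and 11 fell in RA. The called shares were 81.0% and 71.4%, near the 78.6% and 68.7% of all tested genes. The interaction was called for 10 (47.6%, beside 50.6% of all tested genes), with 4 above and 6 below 0, and with 3 other scalings for 4 to 6 above and 6 or 7 below. Shmt2, the serine hydroxymethyltransferase of mitochondria, rose from 215 to 656 CPM in WT and from 224 to 530 CPM in RA. Mccc1, a subunit of methylcrotonyl-CoA carboxylase, rose from 17.6 to 41.8 CPM in WT and from 18.4 to 38.7 CPM in RA. Mlycd, malonyl-CoA decarboxylase, rose from 7.33 to 15.3 CPM in WT and from 10.1 to 14.6 CPM in RA. The interaction was below 0 for Shmt2 (-0.36, limma adjusted p = 2.08e-04) and Mlycd (-0.47, adjusted p = 0.00787). That of Mccc1 (-0.17, adjusted p = 0.114) did not pass the test. The fall of Acadm, the medium-chain acyl-CoA dehydrogenase, was from 32.8 to 10.7 CPM in WT and from 31.3 to 16.2 CPM in RA (interaction 0.61, limma adjusted p = 5.99e-05). Ldhb, a lactate dehydrogenase subunit, fell from 18.0 to 5.94 CPM in WT and from 19.5 to 15.4 CPM in RA, with the highest interaction of the list (1.12, SE 0.13, limma adjusted p = 2.84e-06). Pdk4, a pyruvate dehydrogenase kinase, fell from 7.39 to 2.50 CPM in WT and from 11.6 to 8.60 CPM in RA. For Pdk4 the interaction was 0.87 (limma adjusted p = 1.84e-04), and the RA line was already higher in normal medium (0.59 log2, adjusted p = 0.00218).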

How the data were processed

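PolyA RNA of 8 MEF samples, 2 per group per the labels, was sequenced by the authors as paired-end Illumina TruSeq v2 libraries. Per the submitters' processing notes, TopHat2 2.0.9, mm9, bedtools and edgeR were used; the counter, annotation and handling of strand are not given in the sources used here. The authors deposited one table in which each value is a signal, reads of a gene over an adjusted library size (CPM), with column sums from 965845 to 1029723. All nonzero values (100%, tolerance 0.01) were whole multiples of the value of 1 read, so reads were recovered; 3 reads were worth 0.0548 to 0.069 CPM. Between 78.2% and 80.5% of the counts from 1 to 9 were even, and mates may have been counted separately. Columns named minus and plus were read as normal medium and starvation, after the study's own marking.

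Here log2(CPM + 1) of the 16232 genes with at least 1 CPM in at least 2 samples was fitted with limma 3.58.1 (R 4.3.3; group means over 8 samples, trended empirical Bayes, 2-sided tests, Benjamini-Hochberg adjustment over all tested genes), with a call at an adjusted p under 0.05. Fold differences fitted on this scale understate changes of low genes. edgeR 4.0.16 and DESeq2 1.42.0 on recovered reads were alternatives, with other pseudocounts, filters, scalings, sample sets, thresholds, a replicate block and each sample left out. The self-test on simulated counts ran before the fits. The table holds 26 symbols turned into dates, which were left as they are. Named genes were the 7 sirtuins, up to 6 called genes per list with a mean of at least 5 CPM and the largest absolute log2 difference, overlapping or head-to-head neighbours, and 3 most alike genes per sirtuin; the members, lists and rule were chosen with earlier results of these data known.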

Additional observations from a re-analysis of the deposited data

Results flagged for a closer look

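The response of Sirt1 to starvation differed between the genotypes, with a log2 response in RA less that in WT of -0.96 (SE 0.082, limma adjusted p = 6.46e-08), and it ranged from -1.02 to -0.89 over 20 alternatives. Some alternatives change only the test or the threshold and leave this value as it is. Each starved RA sample lay below each starved WT sample, at 40.4 and 42.0 against 81.9 and 84.4 CPM.

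The response of Sirt2 differed in the same direction, by -0.42 (SE 0.070, limma adjusted p = 1.02e-04). The difference ranged from -0.47 to -0.35 over the same 20 alternatives. At the adjusted p under 1e-05 of the study, its call was lost with limma and with edgeR (edgeR adjusted p = 1.63e-04). With 2 samples in a group, single samples were not examined for standing apart.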

How the results depend on the processing

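Of 728 values of single sirtuins under the alternatives, 695 kept their side of the threshold, 25 lost a call (16 of them at the stricter threshold below), 8 gained one and 0 reversed a call. Of all these, 13 changed sign, none of them called in either fit. Alternatives that change only the threshold, the filter, the variance trend or the block leave the log2 value and its sign as they are. With a threshold of adjusted p under 1e-05, the cut-off of the study, 2 sirtuins were called between RA and WT under starvation, 3 in each starvation response and 1 for the interaction, by limma and, as an alternative chosen after seeing the data, by edgeR. At that threshold limma and edgeR called 141 and 143 genes between RA and WT in normal medium, 3596 and 3586 under starvation, 7399 and 7345 for starvation in WT, 4961 and 4944 for starvation in RA, and 1764 and 1790 for the interaction. Quantile normalization raised the sirtuins with a called interaction to 4, adding Sirt3 (-0.49, limma adjusted p = 0.0124) and Sirt7 (-0.29, 0.0227), and under starvation it called Sirt4 lower in RA (-0.25, 0.0449) and lost Sirt5 (0.403). Leaving out 1 sample gave 3 to 5 sirtuins between RA and WT under starvation, 3 without the first starved RA sample, and 559 to 1706 genes in normal medium, against 1563; the lowest was without the first WT sample in normal medium, with 830 without the second and 939 without the second RA sample. The normal-medium count was 650 without the filter and 590 without the variance trend, and of those called 69.4% were higher in RA, but 40.5% with total-read scaling and 52.6% with quantile normalization. The cause of these shifts was not tested. Samples with the same number correlated between -0.00764 and 0.157 in their deviations from group means (mean 0.0659). These low values do not settle whether the numbers pair the samples. A replicate block raised the called genes in each comparison, to 2059 in normal medium and from 8207 to 8578 for the interaction. It called 1 of the 24 SIRT1 regulators in normal medium in place of 0, and left the sirtuin counts at 0, 5, 5, 5 and 2. Precision is limited by 2 samples per group and, for Sirt3 and Sirt5, by low counts.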
